A study of Mus musculus with 49 samples.

Results

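The genes described here are 10 members of the NF-kB inflammatory signalling pathway measured in the mouse urinary bladder: Il6, Il1b, Cxcl1, Ccl2, Ccl7, Ptgs2, Tnfaip3, Nfkbia, Irak2 and Relb. They were chosen by name, with earlier results of these data known. Each was read from the probe set with the highest mean signal among those the array annotation ties to that gene alone. They are 10 of 18193 genes with such a probe set. Of the 10, 9 passed the filter on low signal and were tested with 14624 genes in all, and Il6 did not pass it.

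NF-kB is a family of transcription factors that waits in the cytoplasm bound to inhibitory proteins. Signals from interleukin-1 and Toll-like receptors, relayed by adaptors such as MyD88 and the IRAK proteins, or from tumour necrosis factor receptors, lead to the breakdown of the inhibitor and let the factor enter the nucleus. There it switches on cytokines, chemokines and prostaglandin synthesis, together with the genes that shut the response off again. In the bladder this program is known from infection and from irritation of the urothelium, the lining epithelium.

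Female C57Bl/J mice drank water with arsenate, the pentavalent form of inorganic arsenic, at 0, 0.5, 2, 10 or 50 ppm, and whole bladders were taken after 1 week, at 76 days of age, or after 12 weeks, at 155 days of age. Each bladder was 1 array of the Mouse430_2 type with no pooling, and the mice given water with no arsenate were the controls at each harvest. Each group held 5 mice, except 0.5 ppm at 1 week with 4, which gave 24 arrays at 1 week and 25 at 12 weeks. The number of arrays sets the precision of every value. Mice are numbered within a group as in the labels.

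Levels are given as log2(signal + 16), a scale with its floor at 4, and a group mean under 5 is called near the floor. Differences are on the same log2 scale with the standard error (SE) of the limma fit of that harvest, and a gene is called at an adjusted p under 0.05 (Benjamini-Hochberg over all 14624 genes). Because the offset of 16 shrinks the difference of a dim gene, the values understate changes most in Il6, and also in Ccl2, Ccl7, Il1b and Ptgs2.

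The sequence just before the transcription start is shown for 4 members: Irak2, whose level moved, and Nfkbia, Cxcl1 and Il6, in which the search below found the motif that NF-kB binds. The κB consensus was searched on both strands as 3 G, a purine, any base, A or T, 2 pyrimidines and 2 C, over the 250 bases before each start in the RefSeq promoter table (GRCm38.p6). Capitals mark a match, each line runs from 5′ to 3′ on the gene's own strand, and the windows lie at chr6:113638217-113638466 on the plus strand for Irak2, chr12:55492648-55492897 on the minus strand for Nfkbia, chr5:90890995-90891244 on the plus strand for Cxcl1 and chr5:30012864-30013113 on the plus strand for Il6.
Irak2: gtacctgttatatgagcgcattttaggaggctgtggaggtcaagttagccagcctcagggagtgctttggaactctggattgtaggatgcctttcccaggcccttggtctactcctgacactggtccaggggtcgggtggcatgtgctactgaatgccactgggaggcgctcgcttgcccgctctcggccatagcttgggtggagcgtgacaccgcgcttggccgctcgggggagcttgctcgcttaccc
Nfkbia: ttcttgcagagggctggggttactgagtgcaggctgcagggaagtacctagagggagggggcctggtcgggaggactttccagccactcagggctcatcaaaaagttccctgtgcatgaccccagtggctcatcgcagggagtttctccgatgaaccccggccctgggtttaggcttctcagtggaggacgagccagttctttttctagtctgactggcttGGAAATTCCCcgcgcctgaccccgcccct
Cxcl1: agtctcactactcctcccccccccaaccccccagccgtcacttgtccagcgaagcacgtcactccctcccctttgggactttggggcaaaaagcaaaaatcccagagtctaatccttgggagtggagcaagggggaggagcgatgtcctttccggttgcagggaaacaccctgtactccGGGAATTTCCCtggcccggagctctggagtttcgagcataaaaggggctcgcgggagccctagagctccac
Il6: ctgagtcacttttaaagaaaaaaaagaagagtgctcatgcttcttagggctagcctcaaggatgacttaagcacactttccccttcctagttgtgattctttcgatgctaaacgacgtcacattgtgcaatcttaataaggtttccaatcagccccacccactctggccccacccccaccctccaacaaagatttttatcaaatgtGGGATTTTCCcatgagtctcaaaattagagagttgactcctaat

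Of the 10 members, 7 had a window in the table, and 4 of those 7 held at least 1 match. In Nfkbia the match lay on the opposite strand at -29 to -20 from the start. In Cxcl1 matches on both strands overlapped, at -71 to -62 and at -70 to -61, and in Il6 the match lay at -44 to -35. Tnfaip3 held 2 matches in 1 of its 2 windows, at -125 to -116 and, on the opposite strand, at -12 to -3. These letters were not found in the windows of Irak2, Ptgs2 and Il1b. Among all genes in the table, 1204 of 27025 (4.46%) had a match, and 1281 of 32851 windows (3.90%) held at least 1.

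The arrays carried bladder RNA by their defining markers. All 10 urothelial markers and all 8 smooth muscle markers passed the filter, with none near the floor in any group. Of 8 neutrophil markers on the array 4 passed, and Cxcr2, a receptor of neutrophils, was near the floor in all 10 groups. Correlations between arrays ran from 0.902 to 0.984 and no pair was identical. At 1 week 3 of the 5 mice of 2 ppm had an RNA integrity number under 8, the lowest 7.2, which bears on all values of that group. For 2 mice of 10 ppm at 1 week no such number was recorded. The group median of the 24 poly-A control probe sets, transcripts added before labelling, lay between 10.60 and 11.04 at 1 week, but at 12 weeks it was 10.64 in water, 10.37 at 0.5 ppm, 10.21 at 2 ppm, 9.59 at 10 ppm and 9.66 at 50 ppm. At 12 weeks this level was thus lower at the higher concentrations, so a fit with it as a covariate cannot fully tell it apart from concentration. All mice of a group shared the leading number of their labels, whose meaning the labels do not give.

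Irak2, the kinase-like adaptor that carries interleukin-1 and Toll-like receptor signals from MyD88 to TRAF6, was the member whose level moved. At 1 week it was higher in the bladders of mice given 50 ppm than in those of mice given water, 1.47-fold. At 12 weeks no rise was called, and the water mice themselves were 1.65-fold higher than the water mice of the earlier harvest. Its only single-gene probe set was 1436507_at.

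At 1 week the log2 level of Irak2 in the water mice was 9.95, 9.59, 10.05, 9.88 and 9.98. In the 50 ppm mice it was 10.35, 10.35, 10.47, 10.72 and 10.33. Every 50 ppm bladder lay above every water bladder, and the lowest of them, 10.33, also lay above the highest of the 19 other arrays of that harvest, 10.19. The difference from water was 0.56 ± 0.10 (SE, 95% interval 0.34 to 0.77, adjusted p = 0.00970 by limma). In that comparison 0.0889% of all genes tested were called higher and 0.335% were called either way.

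At the lower concentrations of 1 week no rise was called. In the 0.5 ppm mice the log2 level of Irak2 was 10.19, 10.05, 9.86 and 10.09, in the 2 ppm mice 10.00, 10.01, 9.75, 9.94 and 10.05, and in the 10 ppm mice 9.82, 9.91, 9.78, 9.57 and 10.00. The range of each of these groups overlapped that of the water mice, with differences of 0.16 ± 0.11 at 0.5 ppm, 0.06 ± 0.10 at 2 ppm and -0.07 ± 0.10 at 10 ppm (SE). The trend over the 5 concentrations in rank order was 0.09 ± 0.03 per step (adjusted p = 0.298), and without the water mice it was 0.12 per step (adjusted p = 0.341).

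At 12 weeks the log2 level of Irak2 was 10.41, 10.74, 10.70, 10.47 and 10.74 in the water mice and 10.59, 10.65, 10.70, 10.26 and 10.14 in the 50 ppm mice. The groups overlapped, with a difference of -0.14 ± 0.15 (SE, 95% interval -0.44 to 0.15, adjusted p = 0.570). At the other concentrations the arrays ranged from 10.06 to 10.73 at 0.5 ppm, from 10.18 to 10.74 at 2 ppm and from 10.07 to 10.67 at 10 ppm, all overlapping the water mice.

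The effect of 50 ppm on Irak2 differed between harvests. Tested as 1 contrast over all 49 arrays, the effect at 12 weeks minus that at 1 week was -0.70 ± 0.18 (SE, adjusted p = 0.0158), in a comparison in which 3.75% of genes were called lower and 7.36% either way. With the poly-A level as a covariate the difference was -0.65 ± 0.20 and was no longer called (adjusted p = 0.128). The rise at 1 week was as large with that covariate, 0.57 (adjusted p = 0.0155).

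Between the water groups of the 2 harvests Irak2 was higher at 12 weeks by 0.72 ± 0.13 (SE, 95% interval 0.46 to 0.98, adjusted p = 1.37e-04), and no array of one group reached the other. In that contrast 6.26% of genes were called higher and 13.4% either way. Age, harvest day and time on study cannot be told apart in it.

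In the order of group means, Irak2 ran from 9.82 ± 0.16 at 10 ppm, 9.89 ± 0.18 in water, 9.95 ± 0.12 at 2 ppm and 10.05 ± 0.13 at 0.5 ppm, all at 1 week, to 10.39 ± 0.27 at 10 ppm and 12 weeks (SD, n = 5, or n = 4 at 0.5 ppm and 1 week). Above these stood 50 ppm at 1 week, 10.44 ± 0.16, and then the remaining 12-week groups, 10.46 ± 0.29 at 0.5 ppm, 10.47 ± 0.25 at 50 ppm, 10.53 ± 0.24 at 2 ppm and 10.61 ± 0.16 in water. Each group's range overlapped that of its neighbour in this order. The widest step, 0.35, parted the 4 lowest 1-week groups from the rest, so the 50 ppm bladders of 1 week sat among the bladders of 12 weeks.

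**Figure D1:**
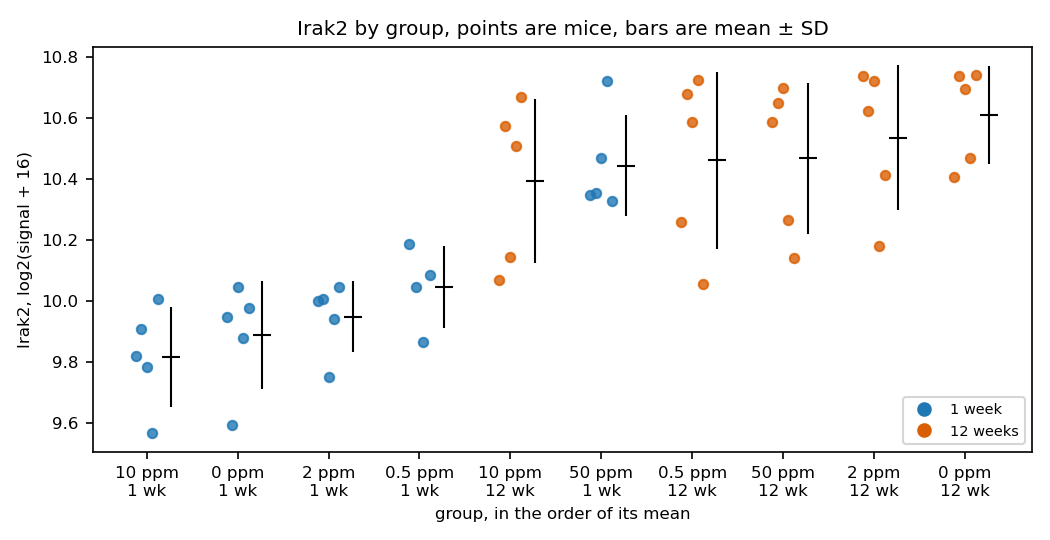
Irak2 level, log2(signal + 16), in each of the 10 groups, ordered from the lowest to the highest group mean. Points are mice, bars are the mean ± SD, and colours are the 2 harvests: 4 of the 5 groups of 1 week lie lowest, and the 50 ppm group of 1 week, mean 10.44, lies among the 12-week groups.

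Markers of other cell types were called in the same comparisons. At 1 week, 3 of 8 liver transcripts were called lower in the 50 ppm mice and 1 had a higher mean (list median -2.15, summed signal 5799.7 to 18876 in water and 5920.4 to 10789 at 50 ppm), with Fgb near the floor. Leaving out 1 mouse, which for these lists was added after seeing the data, gave 1 to 5 called, with 5 without water mouse 1 and 1 without water mouse 3, 4 or 5 or 50 ppm mouse 1, 4 or 5. Of 5 mesothelial markers 1 was called lower, while 3 had a higher mean (0 called in 6 of 10 fits without 1 mouse, list median 0.10, summed signal 17224 to 19039 in water and 17271 to 23358 at 50 ppm). Of the 10 urothelial, 10 macrophage and 4 neutrophil markers tested none was called by limma in that comparison (1, 2 and 0 at an unadjusted p under 0.05). In whole tissue a change in the number of cells of a type and a change in RNA per cell cannot be told apart.

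Between the water groups 13.4% of all genes were called. Of 10 macrophage markers 5 were called lower at 12 weeks (summed signal 28493 to 36752 at 1 week and 20246 to 26864 at 12 weeks), as were 6 of 7 fibroblast markers (109931 to 119379 and 56739 to 81241), 3 of 8 smooth muscle markers (164301 to 193385 and 134086 to 175837) and 7 of 8 liver transcripts (5799.7 to 18876 and 5585.9 to 9638.5). Every marker of these 4 lists was lower in mean. Of 7 endothelial markers 1 was called lower, with 2 higher in mean (2414 to 2621 and 1857 to 2337). Of 10 urothelial markers 2 were called higher, with 8 higher in mean (117212 to 128509 and 120783 to 142770), as were 2 of 5 mesothelial markers, all 5 higher in mean (17224 to 19039 and 18613 to 21461). Of 18 immediate early genes, regulators induced within minutes by growth and stress signals, 6 were called higher, with 15 higher in mean (21089 to 38119 and 31127 to 64173). Leaving out 1 mouse gave 1 (without 1-week mouse 4) to 7 (without 12-week mouse 2) macrophage markers called lower. It gave 0 (without 1-week mouse 3 or 4 or 12-week mouse 3 or 5) to 5 (without 12-week mouse 2) smooth muscle markers called lower. It gave 3 (without 12-week mouse 2 or 5) to 7 immediate early genes and 0 (without 12-week mouse 1) to 2 mesothelial markers called higher. The part of these markers in the Irak2 differences was not tested. Over the 49 arrays, the deviation of Irak2 from its group mean had r = 0.31 with that of the neutrophil markers and 0.17 with urothelium. It was 0.08 with liver, 0.01 with fibroblasts and 0.00 with macrophages. With the differences between groups kept in, the r of Irak2 was -0.62 with liver, -0.56 with fibroblasts and -0.49 with macrophages. It was 0.40 with the immediate early genes, 0.25 with urothelium and -0.02 with neutrophils. All these r are descriptions.

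The genes whose levels most resembled Irak2 over the 49 arrays, ranked by Pearson r after the Irak2 values had been seen, were Dnm2 (r = 0.75), Ndrg1 (0.73), Exosc10 (0.73), Oplah (0.73), Jpt2 (0.73) and Mst1r (0.73). Dnm2 encodes a GTPase that pinches off endocytic vesicles, and Mst1r encodes a receptor tyrosine kinase of epithelial cells. As deviations from the group means these r fell to between 0.34 and 0.47, so much of the likeness lay between groups. All the points share the same arrays.

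Ptgs2, cyclooxygenase 2, makes the prostaglandins of inflammation. It was lower on average in every arsenate group of 1 week, but no difference was called. The log2 level in the water mice was 6.13, 7.43, 7.03, 7.36 and 7.48. It was 6.50, 6.83, 6.73 and 7.06 at 0.5 ppm and 6.16, 6.55, 6.59, 6.60 and 6.64 at 2 ppm. It was 6.26, 6.13, 6.75, 6.00 and 6.00 at 10 ppm and 5.78, 6.85, 5.58, 6.68 and 6.57 at 50 ppm. Water mouse 1, at 6.13, sat among the treated mice, and the other 4 water mice lay above all bladders of 2, 10 and 50 ppm.

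The differences from water for Ptgs2 were -0.31 ± 0.27 at 0.5 ppm, -0.58 ± 0.26 at 2 ppm, -0.86 ± 0.26 at 10 ppm (adjusted p = 0.0908) and -0.80 ± 0.26 at 50 ppm (adjusted p = 0.182), and the trend was -0.21 ± 0.06 per rank step (SE, adjusted p = 0.0986). Without water mouse 1 all 3 of the last were called, at -1.10 (adjusted p = 0.0274), -1.03 (adjusted p = 0.0477) and -0.26 per step (adjusted p = 0.0299). With 50 ppm mouse 2 left out the trend was called as well (adjusted p = 0.0417). Array weights from limma, which give less weight to arrays lying far from the fit, called all 3, at -0.94, -1.11 and -0.26 (adjusted p = 0.0142, 0.0196 and 0.0154). These weights come from the same values, so they are not separate from leaving out a mouse. With them 1262 genes in all were called at 10 ppm, against 114 without them. The other probe set of Ptgs2, 1417263_at, gave the same sign with smaller sizes, -0.12, -0.13, -0.26 and -0.38 in order of concentration.

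At 12 weeks the mean log2 level of Ptgs2 was 7.24 ± 0.41 in water, 7.74 ± 0.78 at 0.5 ppm, 7.57 ± 0.72 at 2 ppm, 6.71 ± 0.57 at 10 ppm and 6.95 ± 0.33 at 50 ppm (SD, n = 5). The differences from water, from -0.53 to 0.49, were not called, and the groups overlapped. The signs at 0.5 and 2 ppm were opposite to those of 1 week. The 50 ppm effect differed between harvests by 0.50 ± 0.44 (SE, adjusted p = 0.501).

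The immediate early genes were read beside Ptgs2. At 1 week 1 of 18 had a higher mean at 50 ppm than in water, with none called by limma, 7 at an unadjusted p under 0.05 (list median -0.41, summed signal 21089 to 38119 in water and 16675 to 29348 at 50 ppm). At 12 weeks 7 of 18 were called lower at 50 ppm, where 4.06% of all genes were called (31127 to 64173 in water and 16496 to 23177 at 50 ppm). With the poly-A level as a covariate, which at 12 weeks cannot be fully told apart from concentration, 0 of the 18 were called, with 13 lower in mean. Without water mouse 2 of 12 weeks 3 were called, and without water mouse 1 there were 10. Within groups the deviation of Ptgs2 had r = 0.53 with the mean of these genes over the 49 arrays. Their part in the Ptgs2 values was not tested.

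Nfkbia and Tnfaip3 are the brakes of the pathway. Nfkbia encodes IκBα, the inhibitor that holds NF-kB in the cytoplasm and that NF-kB itself induces, and Tnfaip3 encodes A20, the ubiquitin-editing enzyme that ends signalling. Neither was called in any comparison, and their differences were small: in all 8 comparisons with water for each gene, the 95% interval stayed within 1.5-fold either way.

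Nfkbia at 1 week was 13.27, 13.27, 13.42, 13.39 and 13.27 in the water mice, 13.21, 13.14, 13.00 and 12.98 at 0.5 ppm and 12.97, 13.21, 13.11, 13.15 and 13.23 at 50 ppm. Both arsenate groups lay wholly below the water mice. The differences were -0.24 ± 0.07 at 0.5 ppm (adjusted p = 0.175) and -0.19 ± 0.07 at 50 ppm (SE, adjusted p = 0.229). With array weights both were called (adjusted p = 0.0346 and 0.0483), and at 0.5 ppm those weights called 401 genes in all, against 7 without them. The 5 probe sets of Nfkbia were all lower at 0.5 ppm, from -0.37 to -0.18, but at 50 ppm the other 4 gave 0.02 to 0.09, opposite in sign to the set used. At 12 weeks the group means lay between 13.12 and 13.24, and the differences from water between -0.03 and 0.10.

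Tnfaip3 at 1 week was 8.29, 8.43, 8.40, 8.57 and 8.49 in the water mice and 8.59, 8.76, 8.92, 8.62 and 8.72 at 10 ppm, with no overlap. The difference of 0.29 ± 0.11 was not called (SE, adjusted p = 0.165), and the other probe set, 1450829_at, gave 0.24. At the other concentrations the differences were -0.15 at 0.5 ppm, 0.07 at 2 ppm and 0.16 at 50 ppm. At 12 weeks they were 0.09, -0.04, -0.18 and -0.20 in order of concentration, all with overlapping groups. Within groups Tnfaip3 had r = 0.53 with the T cell markers, 0.51 with fibroblast, 0.48 with smooth muscle and 0.45 with B cell markers. The rank correlations were 0.39, 0.42, 0.47 and 0.25 in the same order, and all these values stand here as descriptions.

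Relb is the NF-kB subunit that pairs with p52 in the slower, non-canonical arm of the pathway. At 1 week it was 8.32, 8.82, 8.72, 8.92 and 8.83 in the water mice, 8.18, 8.37, 8.29 and 8.10 at 0.5 ppm, and 8.68, 9.32, 8.77, 8.90 and 8.67 at 50 ppm. The 0.5 ppm mice lay below 4 of the 5 water mice, while the 50 ppm mice lay among or above them. The differences were -0.49 ± 0.15 at 0.5 ppm (adjusted p = 0.180), -0.23 ± 0.14 at 2 ppm, -0.36 ± 0.14 at 10 ppm (adjusted p = 0.180) and 0.15 ± 0.14 at 50 ppm (SE), none called. With array weights the 0.5 ppm difference, -0.52, was called (adjusted p = 0.0292), in a fit that called 401 genes in all, against 7 without weights. Over the 4 arsenate groups alone the slope of Relb was 0.18 ± 0.05 per step and was not called (adjusted p = 0.196). At 12 weeks the differences ran from -0.26 to 0.11.

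Among the cytokines, Il6 was near the floor of the scale. Its mean was under 5 in all 10 groups, 44 of the 49 arrays were under 5, and the signal ran from 0.690 to 32.2. The 5 arrays above 5 were all from 12 weeks: 5.59 in water, 5.34 and 5.12 at 2 ppm, 5.25 at 10 ppm and 5.30 at 50 ppm. Each of these groups had only 1 or 2 mice above 5, so the level of Il6 was not measured well enough to order the groups. With the filter removed, Il6 differed from water at 50 ppm by 0.21 ± 0.15 at 1 week (adjusted p = 0.654) and -0.23 ± 0.29 at 12 weeks (SE, adjusted p = 0.694).

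Il1b, the interleukin-1β precursor, was above the floor in every group, and no difference was called. At 12 weeks its mean log2 level was lower at each higher concentration, 6.96 ± 0.32 in water, 6.84 ± 0.23 at 0.5 ppm, 6.64 ± 0.49 at 2 ppm, 6.59 ± 0.49 at 10 ppm and 6.53 ± 0.34 at 50 ppm (SD, n = 5). The arrays overlapped throughout, from 6.64 to 7.38 in water and from 6.06 to 6.99 at 50 ppm. The trend was -0.11 ± 0.05 per step (SE, adjusted p = 0.215), and the 50 ppm difference was -0.43 ± 0.25 (95% interval -0.94 to 0.08, adjusted p = 0.298). At 1 week the means were 6.71 ± 0.12, 6.75 ± 0.50, 6.83 ± 0.30, 6.77 ± 0.27 and 6.42 ± 0.15 in the same order, without that sequence.

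Cxcl1 draws neutrophils, and Ccl2 and Ccl7 draw monocytes through the receptor Ccr2. None of the 3 was called at any concentration. Cxcl1 was 7.55, 7.53, 8.21, 7.95 and 7.78 in the water mice of 1 week and 8.40, 8.15, 8.63, 7.78 and 8.20 at 2 ppm, where the difference was widest, 0.43 ± 0.16 (SE, adjusted p = 0.780). Mice 3, 4 and 5 of that 2 ppm group had an RNA integrity number of 7.2, against 8.4 or more in every other array with one recorded. With arrays under 8 left out, which left 2 mice at 2 ppm, the difference was 0.47 ± 0.20 (SE, adjusted p = 0.546). The 3 probe sets of Cxcl1 did not agree there: the other 2, of which 1 did not pass the filter, gave -0.23 and -0.10. At 12 weeks its differences ran from -0.29 to -0.05, with a SD of 0.46 in water and 0.70 at 50 ppm.

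Ccl2 ranged from 4.41 to 7.45 over the 49 arrays and Ccl7 from 4.38 to 7.30, with 2 and 4 arrays under 5. The SD within groups was 0.64 for both, the widest of the 10 members. Ccl2 had group means from 6.00 to 6.83 and differences from water of -0.09 to 0.52. Ccl7 had group means from 5.72 to 6.52 and differences of -0.32 to 0.46. The 95% intervals for Ccl7 stayed within 2-fold either way in 2 of 8 comparisons and those for Ccl2 in 5 of 8, so at this number of mice a change of 2-fold was not outside the interval in the remainder.

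**Figure D2:**
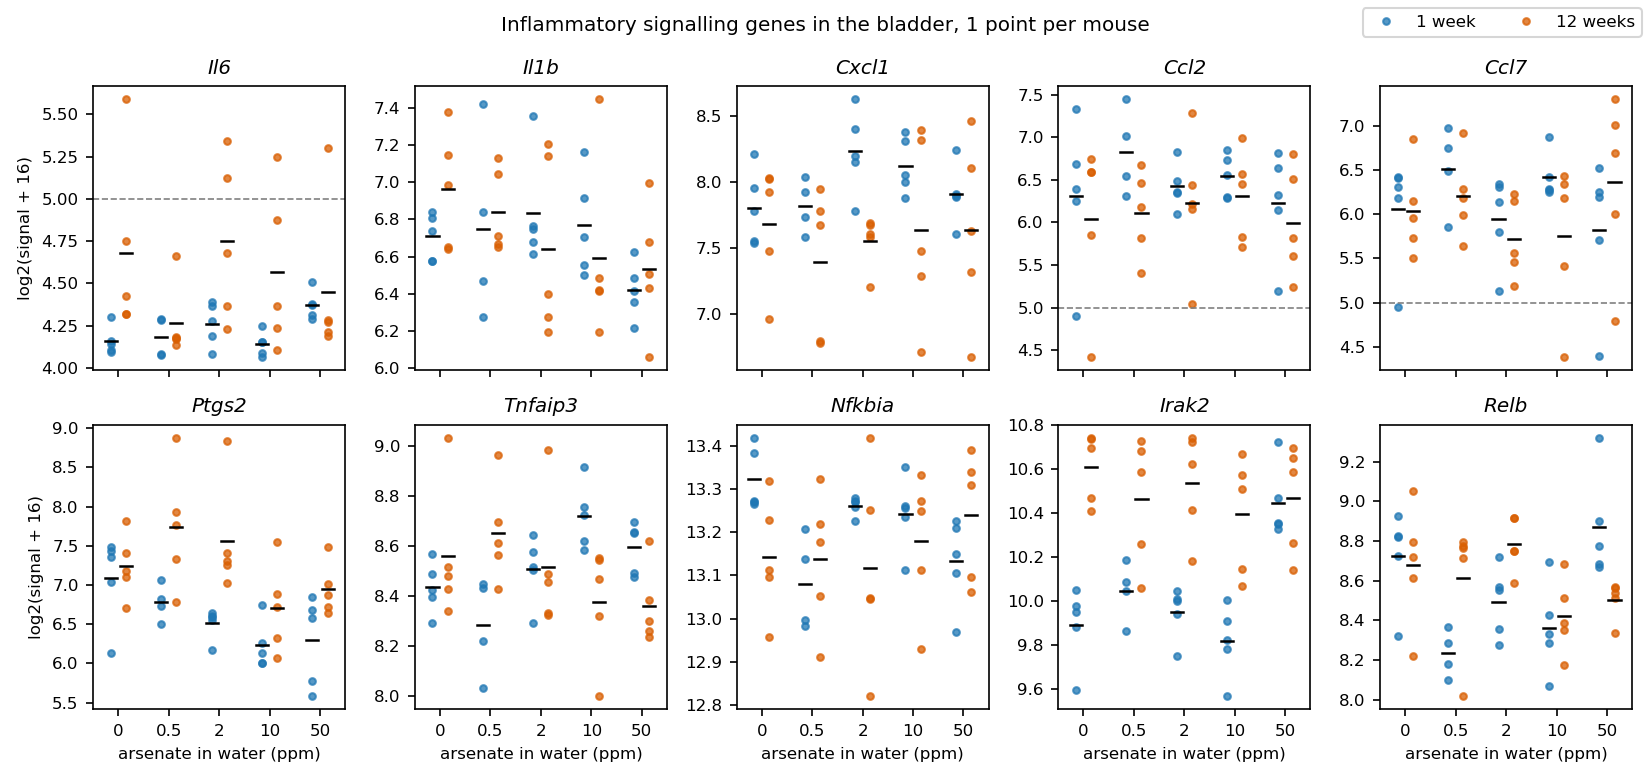
Level of each of the 10 genes, log2(signal + 16), against arsenate in the water in ppm, with a separate axis for each gene. Points are mice, coloured by harvest, black bars are group means and the dashed line marks 5, the limit for near the floor: Il6 lies under it in 44 of 49 arrays, and the 50 ppm points of Irak2 at 1 week lie apart from the other 1-week points.

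Counted together, the 9 tested members gave 1 call in 72 comparisons of a concentration with its water group. At 1 week none of the 9 was called at 0.5 ppm, where 0.0479% of all genes were called, nor at 2 ppm, where 0% were (5.93% at an unadjusted p under 0.05), nor at 10 ppm, where 0.78% were, nor in the trend, where 0.267% were. At 12 weeks none was called at 0.5 ppm (0.527% of all genes), 2 ppm (0.0137%), 10 ppm (0.335%) or 50 ppm (4.06%), nor in the trend (5.26%). At an unadjusted p under 0.05 by limma, 2, 2, 3 and 3 members passed at the 4 concentrations of 1 week and 3 in the trend, and 0, 0, 0 and 0 at 12 weeks with 2 in the trend. Of all genes, 12.5%, 5.93%, 17.1% and 11.5% passed that limit at the 4 concentrations of 1 week and 9.72% in the trend. At 12 weeks it was 19.0%, 9.91%, 16.0% and 24.1%, with 22.5% in the trend.

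The median difference of the 9 was -0.09 at 50 ppm and 1 week, against 0.01 over all genes tested, with 4 of 9 higher in mean. At 50 ppm and 12 weeks it was -0.14, against -0.04, with 2 of 9 higher in mean. At the lower concentrations the median of the 9 was 0.01, 0.06 and 0.06 at 1 week and -0.01, -0.04 and -0.22 at 12 weeks. The 95% interval stayed within 2-fold either way in 57 of the 72 comparisons and within 1.5-fold in 34. All concentrations of a harvest share the same water mice.

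**Figure D3:**
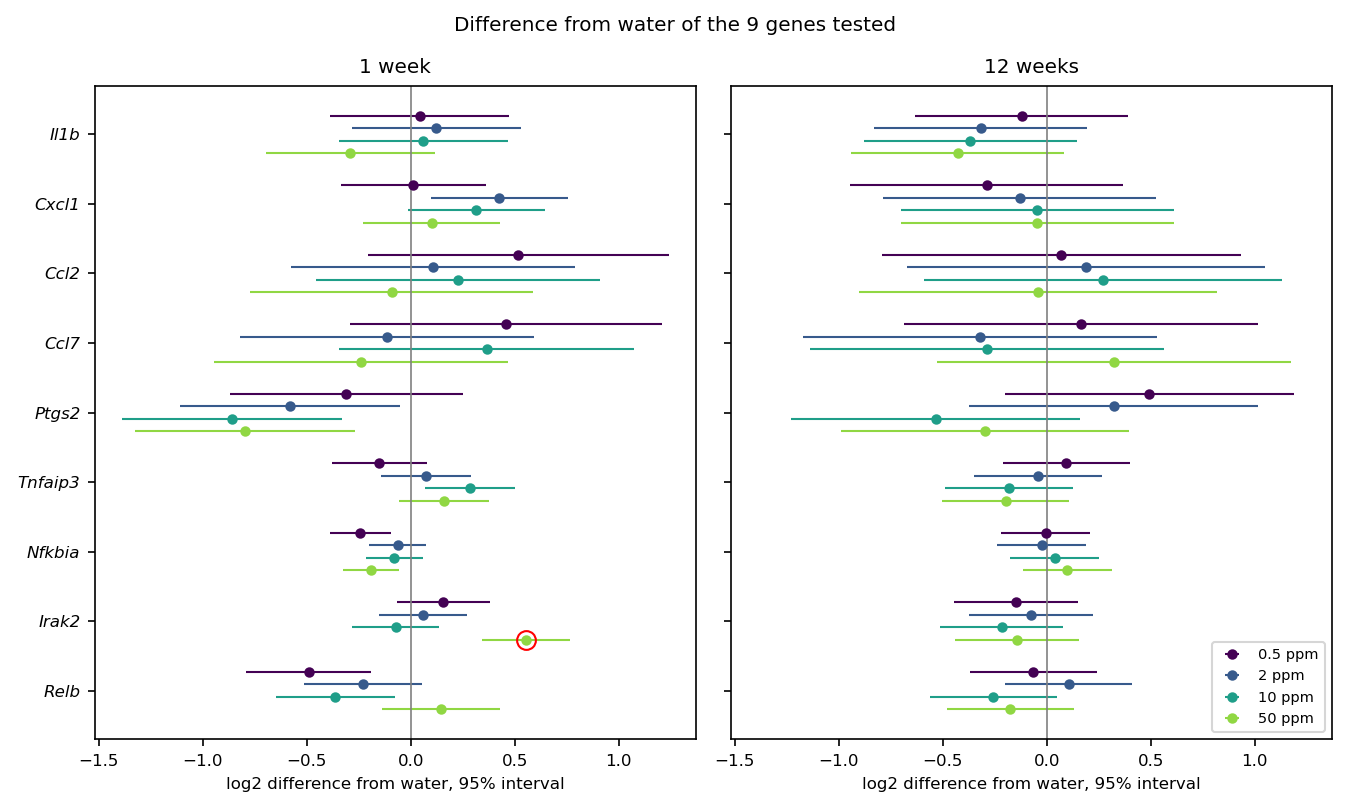
Log2 difference from the water mice of the same harvest for the 9 genes tested, with 95% intervals, at 4 concentrations (colours), 1 week on the left and 12 weeks on the right. The red ring marks the 1 called difference, Irak2 at 50 ppm and 1 week, 0.56, and the intervals of Ccl2, Ccl7 and Ptgs2 are the wide ones.

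Most pairs of members had a low correlation from mouse to mouse. Over the 49 arrays, the deviations from the group mean gave a median r of 0.04 in 45 pairs of members, and in 0 pairs did r pass 0.5. The pairs with the highest r were the monocyte chemokines Ccl2 and Ccl7 (0.44), the inhibitors Tnfaip3 and Nfkbia (0.38), and Il1b with Cxcl1 (0.36). The lowest were Cxcl1 with Irak2 (-0.31) and Cxcl1 with Ptgs2 (-0.28). Taken by harvest, 6 pairs passed 0.5 over the 24 arrays of 1 week and 0 over the 25 of 12 weeks. Those 6 were Ptgs2 with Relb (0.60), Il1b with Cxcl1 (0.53), Ccl2 with Ptgs2 (0.53), Ccl2 with Relb (0.52), Il1b with Tnfaip3 (0.51) and Ccl2 with Nfkbia (0.51). At 12 weeks the same pairs had r of 0.07, 0.32, -0.03, -0.01, -0.21 and 0.23. The difference between harvests was not tested. All these r are descriptions over values that share arrays.

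**Figure D4:**
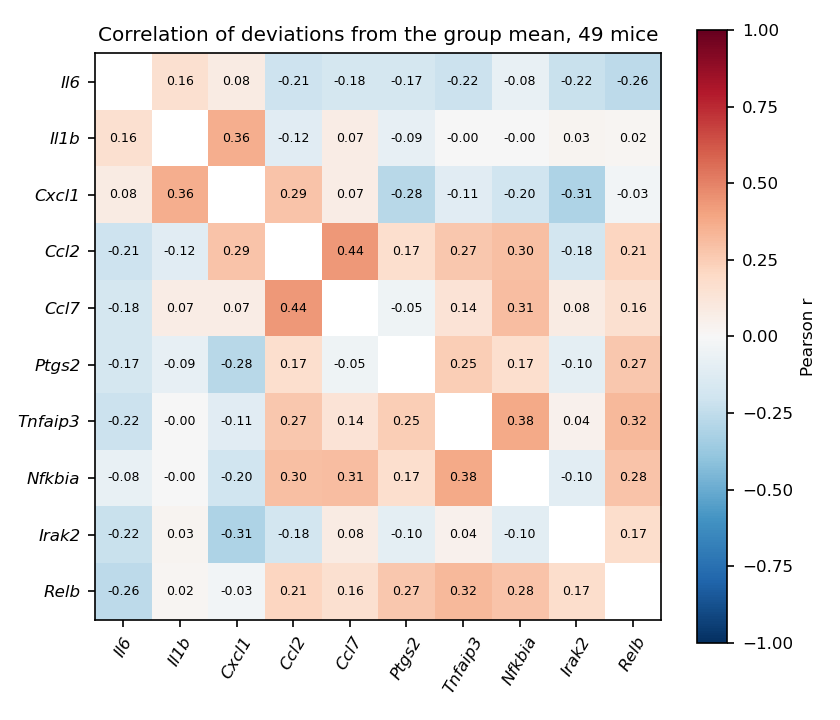
Pearson r between the 10 genes, from the deviations of each array from its group mean in log2(signal + 16), over 49 mice. Red is positive and blue negative, and the palest cells are near 0: the highest value is 0.44 for Ccl2 and Ccl7 and the lowest -0.31 for Cxcl1 and Irak2.

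The genes most like the mean of the 9 members over the 49 arrays, each member scaled to its own mean and SD, were Fhdc1 (r = 0.59), Socs3 (0.53), Pip5k1c (0.52), Lemd2 (0.51), Klf16 (0.51) and Pmf1 (0.51). In the same order r was 0.45, 0.49, 0.26, 0.16, 0.31 and 0.62 at 1 week, and 0.66, 0.58, 0.71, 0.72, 0.61 and 0.51 at 12 weeks. For all of them but Pmf1 r was higher at 12 weeks, and the difference between harvests was not tested. The genes were ranked by r over these same arrays, with the differences between groups kept in, so the values are descriptions. Socs3 is the feedback inhibitor of cytokine receptors that signal through STAT3.

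A wider list of 113 genes of the pathway held 106 on the array, and 96 were tested, 87 of them not among the members. Of the 10 that did not pass the filter, 8 were near the floor in all groups: Il6, Il1a and Csf2 among cytokines, Ccl3, Ccl20 and Cxcl5 among chemokines, the neutrophil receptor Cxcr2, and Nos2, which makes nitric oxide. Tnf was near the floor in 5 groups and Cxcl2 in 7.

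At 50 ppm and 1 week none of the 87 was called, where 0.335% of all genes were. Of the 87, 42 had a higher mean, with a median difference of -0.01 against 0.01 over all genes (5 at an unadjusted p under 0.05 by limma). By role, 3 of 4 NF-kB subunits, 7 of 14 inhibitors, 6 of 10 IKK complex kinases, 10 of 17 receptors, 6 of 13 adaptors, 4 of 10 cytokines, 3 of 9 chemokines and 7 of 19 other targets were higher in mean, members included. At 50 ppm and 12 weeks 1 of the 87 was called, lower, where 4.06% of all genes were called either way. Of the 87, 39 had a higher mean (median -0.02 against -0.04).

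**Figure D5:**
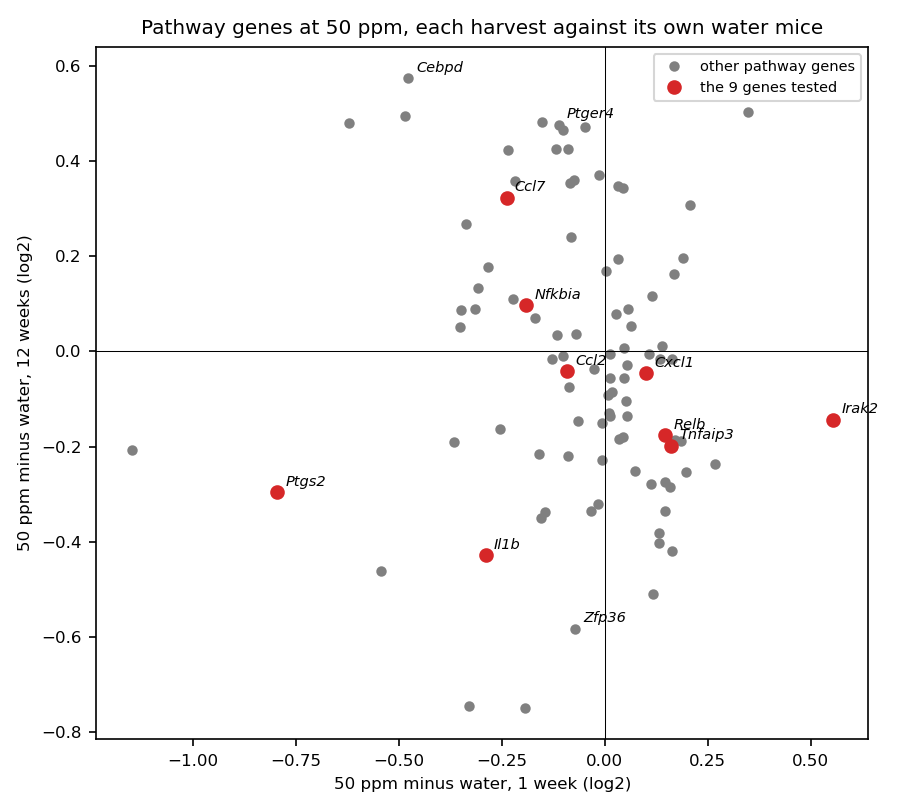
Log2 difference of 50 ppm from water at 12 weeks (vertical) against 1 week (horizontal) for the 96 pathway genes tested, each against the water mice of its own harvest. Red points are the 9 members tested, grey points the others: Irak2 lies farthest to the right of the red points at 0.56, and Zfp36 lies at -0.58 on the vertical axis.

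The called gene at 12 weeks was Zfp36, tristetraprolin, which speeds the decay of cytokine mRNAs. Its level was 11.18 ± 0.33 in water, 11.02 ± 0.39 at 0.5 ppm, 10.89 ± 0.10 at 2 ppm, 10.74 ± 0.07 at 10 ppm and 10.60 ± 0.16 at 50 ppm (SD, n = 5). It fell by 0.58 ± 0.14 at 50 ppm (SE, adjusted p = 0.0283) and by 0.14 ± 0.03 per step in the trend (adjusted p = 0.0104). Of all genes, 4.06% were called in the former and 5.26% in the latter. With the poly-A level as a covariate the values of Zfp36 were -0.07 (adjusted p = 0.924) and -0.04 (adjusted p = 0.816). That level was also lower at the higher concentrations of 12 weeks, so it and concentration cannot be fully told apart in these fits. The 50 ppm call was also lost in 6 of 10 fits that left out 1 mouse, those without water mouse 2 (-0.45, adjusted p = 0.0978), 3 (-0.62) or 5 (-0.57), or without 50 ppm mouse 1 (-0.55), 2 (-0.58) or 4 (-0.54).

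Ptger4, the prostaglandin E receptor EP4, was called higher in the trend of 12 weeks, in which 5.26% of all genes were called. It rose by 0.13 ± 0.04 per step (SE, adjusted p = 0.0361), from 9.81 ± 0.22 in water to 10.29 ± 0.24 at 50 ppm (SD, n = 5). That call was lost with the poly-A covariate (adjusted p = 0.467) and without the water mice (0.17 per step, adjusted p = 0.0560). It was also lost in 8 of 25 fits that left out 1 mouse, those without water mouse 2 or 3, 0.5 ppm mouse 2 or 3, 10 ppm mouse 1, or 50 ppm mouse 2, 4 or 5, at 0.11 to 0.13 per step (adjusted p = 0.0501 to 0.0885).

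Cebpd, the C/EBPδ transcription factor of the acute phase, was called lower at 10 ppm and 1 week, where 0.78% of all genes were called. It fell by 0.77 ± 0.15 (SE, adjusted p = 0.0110), from 10.40 ± 0.18 in water to 9.63 ± 0.26 (SD, n = 5). Without water mouse 3 the value was -0.72 and the call was lost (adjusted p = 0.0521). Apart from these 3 genes and Irak2, none of the 96 was called in the 8 comparisons with water or in either trend. In the contrast of the 50 ppm effect between harvests, in which 7.36% of all genes were called, Cebpd was called higher (1.05, adjusted p = 0.0110) and Sharpin, a subunit of the linear ubiquitin ligase that helps activate IKK, was called lower (-0.44, adjusted p = 0.0260). With the poly-A level as a covariate, an alternative added after seeing the data, Cebpd was at 1.15 (adjusted p = 0.0465) and Sharpin at -0.27 (adjusted p = 0.325). The call of Sharpin was also lost in 4 of 20 fits that left out 1 mouse, water mouse 2 or 50 ppm mouse 2 of 1 week, or water mouse 2 or 50 ppm mouse 4 of 12 weeks (-0.42 to -0.37, adjusted p up to 0.0724).

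Between the water groups 1 of the 87 pathway genes was called higher at 12 weeks and 6 lower, 8.05% against 13.4% of all genes, here named after their values were seen. Sele, the endothelial adhesion molecule E-selectin, was higher by 0.78. Ccr2, the receptor of Ccl2 and Ccl7, was lower (-1.18, adjusted p = 0.00242), as were Traf1 (-0.99), Cxcl12 (-0.64), Ptger2 (-0.61), Vcam1 (-0.48) and Tlr2 (-0.33). Leaving out 1 mouse kept the calls of Ccr2 and Cxcl12 in all 10 fits, while those of Ptger2, Vcam1, Sele, Traf1 and Tlr2 were lost in 1, 2, 3, 3 and 6. The ligands Ccl2 and Ccl7 were not called (-0.28 ± 0.39 and -0.02 ± 0.39, SE). Macrophage markers were called lower in the same contrast, as given above, and their part in the Ccr2 value was not tested.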

How the data were processed

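RNA of whole bladders was extracted with Trizol, purified with Qiagen columns, biotin-labelled and hybridised, per the labels' protocols, and the deposited values are signal intensity per probe set from GCOS 1.0, per the submitters' processing notes. No source used here states the settings of that software. Each array had a 2% trimmed mean of 500.003 to 500.004, so the deposited intensity was already scaled. Of 45101 probe sets, 64 were controls, 34945 named 1 gene, 932 several and 9160 none, by the platform annotation. The highest-mean probe set stood for each gene, log2(signal + 16) was taken, and genes above the 40th percentile of their array in at least 4 arrays were kept. Each harvest was fitted alone with limma 3.58.1 (R 4.3.3) using lmFit and eBayes with a trend, and the contrasts between harvests used all 49 arrays. The p-values were adjusted by Benjamini-Hochberg. The scripts were tested on simulated data. The genes named outside the members are those of the pathway list called in a comparison with water or a trend, the 6 most like the members' mean, and those said to be chosen by value. The members and all lists were chosen with earlier results of these data known.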

Additional observations from a re-analysis of the deposited data

Results flagged for a closer look

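Single mice stood apart from their group in 13 of 100 sets of a member and a group (13%), by Dixon's test, where chance gives about 1 in 20. The share over all genes was not worked out and the sets share the same arrays, so 13% cannot be read as a trait of the members. The values are log2(signal + 16). Il6, near the floor in every group, was 4.66 in mouse 1 of 0.5 ppm at 12 weeks (the others 4.14 to 4.18) and 5.30 in mouse 4 of 50 ppm at 12 weeks (4.19 to 4.28). Il1b was 7.36 in mouse 3 of 2 ppm at 1 week (6.61 to 6.76) and 7.45 in mouse 4 of 10 ppm at 12 weeks (6.19 to 6.49). Cxcl1 was low, 7.21, in mouse 3 of 2 ppm at 12 weeks (7.58 to 7.69). Ccl7 was low, 4.95, in water mouse 4 at 1 week (6.19 to 6.42) and high, 6.88, in mouse 1 of 10 ppm at 1 week (6.25 to 6.42). Ptgs2 was low, 6.16, in mouse 1 of 2 ppm at 1 week (6.55 to 6.64) and high, 8.84, in mouse 4 of 2 ppm at 12 weeks (7.03 to 7.41). Tnfaip3 was high, 9.03, in water mouse 2 at 12 weeks (8.34 to 8.52) and, 8.99, in mouse 5 of 2 ppm at 12 weeks (8.33 to 8.49). Relb was low, 8.02, in mouse 1 of 0.5 ppm at 12 weeks (8.71 to 8.79) and, 8.33, in mouse 4 of 50 ppm at 12 weeks (8.51 to 8.57).

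The effect of 50 ppm on Irak2 was lower at 12 weeks than at 1 week by 0.70 on the log2 scale (-0.70, limma adjusted p = 0.0158). With the poly-A level as a covariate it was -0.65 and no longer called (limma adjusted p = 0.128). The water mice of 12 weeks were themselves 0.72 above those of 1 week. For Tnfaip3 at 10 ppm every treated mouse lay above the mean of the water mice at 1 week (0.29) and below it at 12 weeks (-0.18), and the difference between harvests was not tested.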

How the results depend on the processing

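Settings were changed singly: array weights, quantile normalization, every probe set in place of 1 per gene, an offset of 1 or 64, a filter at the 60th percentile or none, a joint fit of all arrays, a covariate for the poly-A level or the RNA integrity number, omission of arrays with that number under 8, trends without water, and a block for the replicate number. With array weights the number of members called became 2 at 0.5 ppm (Nfkbia and Relb), 1 at 10 ppm (Ptgs2), 3 at 50 ppm (Ptgs2, Nfkbia and Irak2) and 1 in the trend (Ptgs2), all at 1 week. The same weights raised the calls over all 14624 genes, from 7 to 401 at 0.5 ppm and from 114 to 1262 at 10 ppm, both at 1 week. With the poly-A covariate the number of members called became 0 in the contrast of the 50 ppm effect between harvests. Leaving out 1 mouse gave 0 to 1 members at 10 ppm, 1 to 2 at 50 ppm and 0 to 1 in the trend of 1 week, in each case by adding Ptgs2 without water mouse 1, and in the trend also without 50 ppm mouse 2. No called value turned in direction, while uncalled values of Nfkbia and Cxcl1 had other probe sets of opposite sign. The Irak2 call at 50 ppm and 1 week was kept in all 12 alternatives (0.53 to 0.57, adjusted p up to 0.0312) and all 10 fits without 1 mouse (0.48 to 0.59, adjusted p up to 0.0497), that between water groups in all 11 and 10, and that between harvests in 10 of 11 and in all 20. Same-numbered mice did not deviate together (median correlation -0.00092 and 0.0050 at 1 and 12 weeks), and with the replicate number as a block the member counts stayed the same, 1 at 50 ppm and 1 week. The counts over all genes were less stable: 49 called at 50 ppm and 1 week became 23 without water mouse 2, 82 without 50 ppm mouse 2 and 53 with the block. With all probe sets 433 were called there, but that counts probe sets, of which a gene can have several, and not genes. The 594 called at 50 ppm and 12 weeks became 47 without water mouse 2, 1617 without water mouse 1 and 1 with the poly-A covariate. Leaving out arrays of RNA integrity number under 8 touched no 12-week comparison.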
